A study of Mus musculus with 38 samples.

Results

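The ductular reaction of a cholestatic liver was resolved here into its epithelium and its macrophages. Within each of 4 periportal regions of interest (ROIs 007, 009, 011 and 013) of DDC-fed WT mice, the segment positive for PanCK, a mix of keratins that marks bile duct epithelium, was set against the segment positive for IBA1, a macrophage protein. These are 8 of the 38 segments in the series, chosen by their labels alone, and all 10547 genes of the table were compared. The mice were C57BL/6, 6 to 8 weeks old, and were given a diet with 0.1% DDC (3,5-diethoxycarbonyl-1,4-dihydrocollidine) in 3 rounds of 5 days, parted by 3 days of chow, over 21 days. They were euthanized on day 22. Further groups were used to ask whether the difference between segments depends on diet or genotype, namely 2 ROIs with both segments from WT mice on the control diet (CON) and 5 from DDC-fed Trail Δmye mice, whose myeloid cells lack Trail through a Cre driven from Lyz2. Control-diet Trail Δmye mice (ROIs 026, 027, 028 and 029) also entered the fit of these differences, which held 15 ROIs. The GeoMx assay releases probe barcodes with ultraviolet light from 1 segment at a time in a fixed tissue section. A segment is an area of tissue under a stain and not a sorted cell, so that fewer cells of a type and less RNA per cell cannot be told apart. No label names the mouse, the ROIs may share one, and the p-values measure the spread between ROIs, not between animals.

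Cholangiocytes line the bile ducts, seal the lumen with tight junctions and modify bile by moving ions and water. When bile flow is impaired they proliferate into small irregular ducts, take on a reactive state and release chemokines, while macrophages and matrix-producing fibroblasts gather around them. Macrophages are known for complement C1q, Fc receptor signaling, lysosomal proteases and antigen presentation on MHC class II.

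The PanCK+ segments were the deeper ones in every ROI. Their total counts ranged from 46676 to 61665, against 20319 to 34302 in the IBA1+ segments, and 21.8% to 36.3% of genes stood at 1 count in PanCK+ segments against 45.6% to 69.9% in IBA1+ segments. No value in the table lies below 1, so that 1 count is the lowest value and cannot be read as detection. The Q3-normalized count (each segment scaled to the same 75th percentile) of 1 count was 2.10 to 2.63 in PanCK+ segments and 3.50 to 5.25 in IBA1+ segments. Scaling alone therefore places a gene at 1 count in both segments of an ROI between -1.32 and -0.74 on the log2 scale. Genes near 1 count lean toward the IBA1+ side for that reason, and 114 genes stood at 1 count in all 8 segments.

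**Figure D1:**
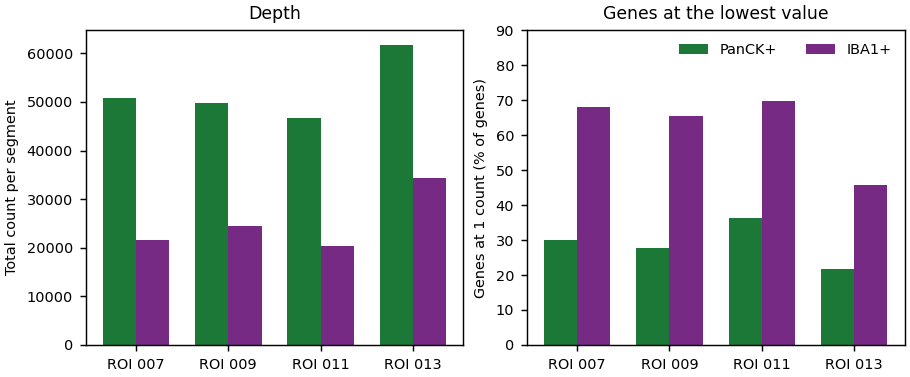
Total count (left) and share of genes at 1 count, the lowest value in the table (right), for the PanCK+ (green) and IBA1+ (purple) segment of each ROI, 1 bar per segment. In every ROI the PanCK+ segment had the higher total and the lower share of genes at 1 count.

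Tested with edgeR's quasi-likelihood test with ROI as a block, 112 genes were higher in PanCK+ segments (1.06% of the genes tested) and 78 were lower (0.74%) when an adjusted p (Benjamini-Hochberg) below 0.05 was required, 190 genes or 1.8% in all. The Q3-normalized counts of the PanCK+ and IBA1+ segments did not overlap for 156 of these 190 genes, beside 10.6% of all genes tested. The 10.6% include the 114 genes at 1 count in all 8 segments, which scaling alone keeps apart. Of the 112 higher genes, 107 had the higher Q3-normalized count in the PanCK+ segment of all 4 ROIs. Of the 78 lower genes, 59 had the lower one in all 4 ROIs. An ROI with both segments at 1 count was not taken as lower. The summed raw count was greater in the IBA1+ segments, the shallower ones, for 77 of the 78. The calls were made on these same counts, so neither the 77 nor the 156 without overlap are separate support. By raw count, 19 of the 78 were higher in the IBA1+ segment of all 4 ROIs. A mean count under 5 was found for 32 of the 78 lower but 2 of the 112 higher genes. When each ROI was left out in turn, 56 of the 190 genes were called in all 4 fits. The fit gave the spread of each single gene almost no weight (its prior degrees of freedom were infinite), and an exact sign test over 4 pairs cannot go below 0.125, so the SD of the log2 ratio over the 4 ROIs is given beside the main genes. Thinning all segments to the smallest total left 0 of 10547 genes called by edgeR (511 at an unadjusted p under 0.05), and 97 of 446 genes when those under a mean count of 5 were dropped as well, 79 of them among the 190.

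**Figure D2:**
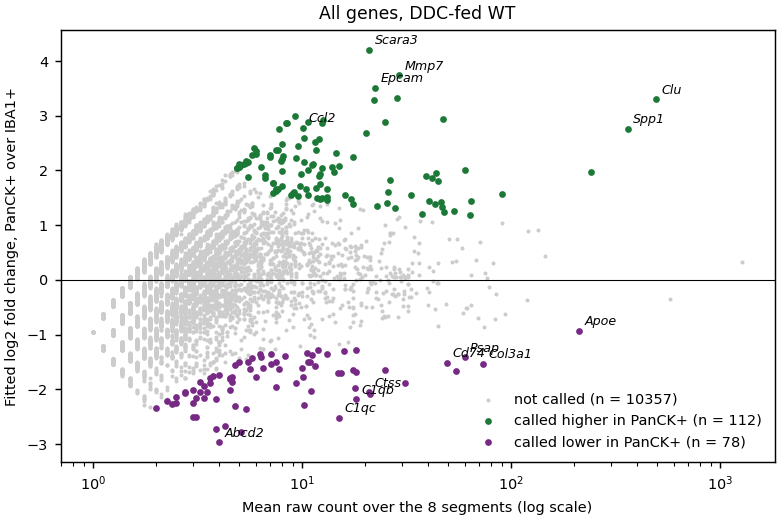
Fitted log2 fold change of PanCK+ over IBA1+ segments against the mean raw count over the 8 segments (log axis), 1 point per gene, with called genes in green (112 higher in PanCK+) and purple (78 lower). The 19 higher genes with all 4 IBA1+ segments at 1 count have only a lower bound to their fold.

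The stains themselves chose the segments, so their genes are described without a test. Krt19 stood at 59.3, 44.1, 55.1 and 60.9 Q3-normalized counts in the PanCK+ segments (ROIs in the order 007, 009, 011, 013, as throughout) and at 5.25, 5.25, 5.25 and 10.5 in the IBA1+ segments. Krt8 ranged from 174 to 321 in PanCK+ and from 47.3 to 158 in IBA1+ segments, and Krt18 from 163 to 206 and from 5.25 to 137. Both simple-epithelium keratins were thus well above 1 count in most IBA1+ segments. Krt7 reached 8.40 to 31.5 against 5.25 to 17.5, and its groups overlapped. Aif1, the gene of IBA1, was read at too few counts to show whether it followed its stain. It stood at 2.47, 12.6, 10.5 and 4.20 in PanCK+ and at 21.0, 5.25, 5.25 and 10.5 in IBA1+ segments. It was higher in the IBA1+ segment of 2 ROIs only. The 2.47 in ROI 007 and the 5.25 in ROIs 009 and 011 are values of 1 count.

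Cholangiocyte markers were higher in the PanCK+ segments for the greater part. Of 18 markers (keratins left out), 11 were called higher and 0 lower, 15 were higher in all 4 ROIs, and the median log2 fold change was 1.91, beside -0.18 over all genes tested. Their summed Q3-normalized count was 1870 to 2510 in PanCK+ and 252 to 462 in IBA1+ segments. Epcam, an adhesion molecule of biliary epithelium, stood at 71.7, 73.5, 105 and 143 in PanCK+ and at 15.8, 10.5, 5.25 and 3.50 in IBA1+ segments. It was 3.51 higher on the log2 scale (SE 0.50, adjusted p = 5.09e-09, edgeR, SD over ROIs 1.44), with no overlap. Cd24a, a mucin-like surface protein of progenitor and ductal cells, read 116, 105, 118 and 155 against 5.25, 10.5, 5.25 and 24.5 (log2 fold change 3.33, SE 0.46). Spp1 encodes osteopontin, a secreted matricellular protein. It read 1560, 1340, 1880 and 1460 in PanCK+ segments and 110, 320, 215 and 294 in IBA1+ segments, a 6.81-fold difference (log2 fold change 2.77, SE 0.29, adjusted p = 2.8e-18, edgeR). With TMM factors in place of the upper quartile, in a fit with 17.8 prior degrees of freedom, the adjusted p of Spp1 was 3.59e-05 (edgeR). Muc1, Pkhd1 (the fibrocystin gene of polycystic liver disease), Bicc1, Prom1, Tm4sf4 and Sox9 had log2 fold changes of 2.58, 2.07, 1.92, 2.04, 1.38 and 1.54. The groups overlapped for Sox9, the transcription factor of ductal fate, whose IBA1+ segment of ROI 013 held 7 counts. Among markers that did not pass, Ehf read 8.40 to 27.2 against 3.50 to 5.25 (adjusted p = 0.0957, edgeR) and Cftr, the chloride channel of bile secretion, 7.41 to 15.8 against 3.50 to 5.25. Pkhd1, Bicc1, Prom1, Tm4sf4 and Sox9 lost the call in 3, 2, 4, 3 and 3 of the 4 fits that left out 1 ROI (highest adjusted p = 0.115, 0.331, 0.715, 0.547 and 0.48, edgeR).

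The 12 genes with the highest log2 fold changes included Epcam, Cd24a and Krt19, and the others were surface and secreted proteins for the most part. Clu, which encodes the secreted chaperone clusterin, read 1940, 1960, 2720 and 2100 in PanCK+ and 163, 389, 142 and 221 in the IBA1+ ones. The log2 fold change of Clu was 3.30 (SE 0.28, adjusted p = 1.58e-27, edgeR, SD over ROIs 0.80), the smallest p of the comparison. In the fit with TMM factors the adjusted p of Clu was 7.15e-06 (edgeR). Clu and Spp1 were both several-fold higher in all 4 ROIs and had the highest mean raw counts of the genes called higher. Scara3, a scavenger receptor, stood at 37, 43, 36 and 47 raw counts in PanCK+ segments and at 1 count in all IBA1+ segments, at least 6.49-fold higher with 3 counts per segment as the floor. Mmp7, the matrix metalloproteinase matrilysin, read 98.9, 130, 116 and 164 against 5.25, 15.8, 5.25 and 10.5 (log2 fold change 3.74, SE 0.49, adjusted p = 6.71e-11, edgeR). It was higher in each ROI and its groups stayed apart. Adgrg1 (an adhesion receptor) and St14 (the membrane protease matriptase) stood at 11 to 23 and at 11 to 21 raw counts against 1 count in every IBA1+ segment, at least 2.73-fold and 2.54-fold higher. Sftpd, the collectin surfactant protein D, read 44.1 to 52.5 against 5.25 to 7.00, the tightest of these genes over the ROIs (SD 0.28). Its IBA1+ segments held 1, 1, 1 and 2 raw counts, so that the spread on that side is mostly that of the scaling factors. Rgs5, a regulator of G protein signaling known best from pericytes, read 163, 181, 213 and 254 in PanCK+ and 5.25, 10.5, 63.0 and 31.5 in IBA1+ segments.

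**Figure D3:**
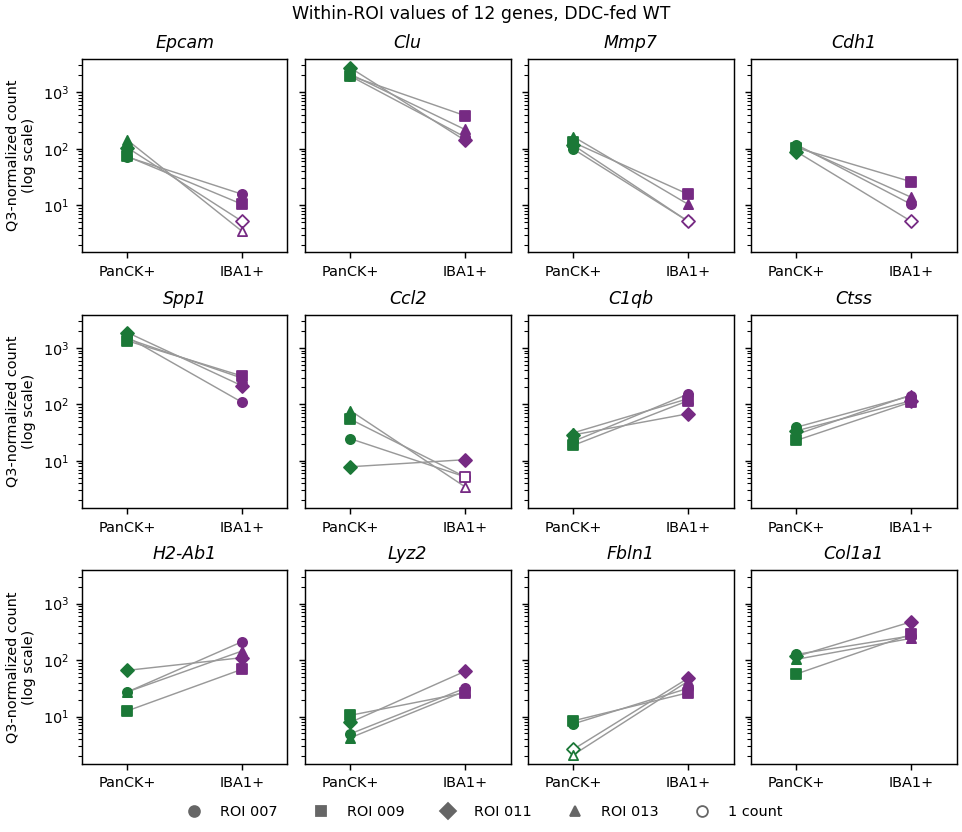
Q3-normalized counts (log axis) of 12 genes in the PanCK+ (green) and IBA1+ (purple) segment of each ROI, joined by a line within an ROI, with the marker shape giving the ROI and an open marker a value of 1 count. Lines fall for the epithelial genes in all 4 ROIs, Ccl2 rises in ROI 011 alone, and the macrophage and matrix genes rise in all 4 ROIs.

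Of 24 measured epithelial junction genes, 7 were called higher in PanCK+ segments, 0 were called lower and 17 did not pass (median log2 fold change 0.99). Cdh1, the adherens junction protein E-cadherin, read 119, 105, 89.3 and 113 in PanCK+ segments against 10.5, 26.3, 5.25 and 14 (log2 fold change 2.89, SE 0.45). The tight junction claudins Cldn2, Cldn3, Cldn4 and Cldn7 had log2 fold changes of 2.52, 2.32, 2.30 and 2.86, although Cldn4 and Cldn7 stood at 1 count in all IBA1+ segments, which bounds their difference at no less than 1.70-fold and 2.54-fold. The desmosomal cadherin Dsg2 and F11r, the junctional adhesion molecule A gene, followed with 2.69 and 2.24. For ion and fluid transport, 4 of 14 genes were called higher and 0 lower (median 1.11). Among them were Atp1b1, a subunit of the sodium pump (42.0 to 146 against 3.50 to 15.8, log2 fold change 3.29), and the carbonic anhydrase Car2 (1.77). Among 12 duct transcription factors 4 were called higher and 0 lower (median 1.23), with Sox4 at 1.94, Onecut1 at 1.78, Onecut2 at 1.58 and Sox9 as above. Cldn2 lost the call without ROI 013 (adjusted p = 0.0853, edgeR), Sox4 without ROI 007 (0.052), and Cldn4, Car2, Onecut1 and Onecut2 in 2, 3, 3 and 3 of those 4 fits (highest adjusted p = 0.165, 0.275, 0.484 and 0.715).

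Signals known to pass from reactive ducts to their surroundings were mixed. Of 23 chemokines and cytokines, 2 were called higher and 1 lower. Ccl2, the monocyte chemoattractant MCP-1, read 24.7, 54.6, 7.88 and 77.7 in PanCK+ and 5.25, 5.25, 10.5 and 3.50 in the IBA1+ ones. The log2 fold change of Ccl2 was 2.78 (SE 0.54, adjusted p = 9.58e-05, edgeR), but in ROI 011 it was higher in the IBA1+ segment, the groups overlapped and the SD over ROIs was 2.10. Without ROI 013 Ccl2 did not pass (log2 fold change 1.92, adjusted p = 0.155, edgeR). Lcn2, the iron-binding neutrophil gelatinase-associated lipocalin, read 168, 269, 231 and 296 against 26.3, 78.8, 36.8 and 105 (log2 fold change 2.0, SE 0.36), higher in all 4 ROIs. Cxcl12, which guides leukocytes through CXCR4, went the other way, at 29.7, 8.40, 7.88 and 10.5 in PanCK+ against 84.0, 36.8, 68.3 and 77.0 in IBA1+ segments (log2 fold change -2.29, SE 0.39). Cxcl5, Cxcl1 and Tnf stood at 1 count in all IBA1+ segments and at 2 to 9, 1 to 4 and 1 to 4 raw counts in PanCK+ segments, and none of the 3 passed the test. Cx3cl1 and S100a8 had log2 fold changes of -0.68 and -1.28 with adjusted p of 0.908 and 0.579 (edgeR). Of 17 growth and fibrogenic signals 2 were called higher, Mmp7 and Itgav, the integrin subunit that takes part in activating TGF-beta, at 22.2, 50.4, 47.3 and 71.4 against 5.25, 5.25, 10.5 and 14 (log2 fold change 2.38). Of 20 Notch and Hippo pathway genes 1 was called, Ccn2, the connective tissue growth factor, higher by 1.5 on the log2 scale, which passed in 1 of the 4 fits that left out an ROI (highest adjusted p = 0.218, edgeR).

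Macrophage markers, the complement C1q chains among them, were lower in PanCK+ segments for the greater part. Of 15 macrophage markers 10 were called lower in PanCK+ segments and 1 higher, with a median log2 fold change of -1.70, and their summed Q3-normalized count was 714 to 924 in IBA1+ and 214 to 311 in PanCK+ segments. C1qc read 17.3, 16.8, 15.8 and 21.0 in PanCK+ and 68.3, 126, 110 and 109 in IBA1+ segments (log2 fold change -2.52, SE 0.37, adjusted p = 1.67e-08, edgeR, SD over ROIs 0.43). C1qb and C1qa, which form the C1q molecule with it, had -2.18 (SE 0.36) and -1.70 (SE 0.36). Each of the 3 chains was lower in the PanCK+ segment of every ROI, with no overlap between the segments. Ctss, the lysosomal protease cathepsin S, read 39.5, 23.1, 34.1 and 29.4 against 142, 110, 116 and 147 (log2 fold change -2.06, SE 0.35, SD over ROIs 0.29). Lyz2 (lysozyme), Fcer1g and Tyrobp (signaling adaptors of Fc and TREM receptors), Laptm5 and Mpeg1 had -2.36, -2.31, -2.03, -1.89 and -1.63, each lower in the PanCK+ segment of all 4 ROIs. Csf1r, the receptor of the macrophage growth factor CSF1, had -1.28 with overlapping groups. Cd14, the co-receptor for lipopolysaccharide, was the exception of the list, at 32.1, 39.9, 42.0 and 81.9 in PanCK+ against 15.8, 10.5, 10.5 and 14 in IBA1+ segments (log2 fold change 1.94, SE 0.46, adjusted p = 0.00308, edgeR). Without ROI 013 Cd14 did not pass (1.57, adjusted p = 0.254, edgeR), nor did Mpeg1 without ROI 007 (0.0812), and Csf1r passed in 0 of the 4 fits with an ROI left out. Adgre1, the gene of F4/80, and Cd68 did not pass, at 2.47 to 8.40 against 5.25 to 26.3 and at 6.30 to 21.0 against 15.8 to 56.0.

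Some markers of recruited macrophages were among the genes of the IBA1+ side, but their list was mixed. Resident Kupffer cells could hardly be judged, since 0 of 8 of their markers had a mean count of at least 5. Of the markers of recruited macrophages, 5 of 10 did. Of 10 measured markers of monocyte-derived macrophages, 6 were called lower in PanCK+ segments (median log2 fold change -1.46). By ROI, 3 of the 10 were lower and 2 higher in the PanCK+ segment of all 4. Their summed Q3-normalized count overlapped, at 191 to 221 in PanCK+ and 168 to 299 in IBA1+ segments. In ROI 011 the sum was higher in the PanCK+ segment (221 against 168). Trem2, a lipid-sensing receptor, stood at 2, 2, 2 and 3 raw counts in PanCK+ against 3, 3, 6 and 10 in IBA1+ segments (log2 fold change -2.19, SE 0.45). Cx3cr1 (the fractalkine receptor), Itgam (CD11b), Lgals3 (galectin-3), Gpnmb and Mmp12 had -2.17, -2.07, -1.61, -1.51 and -1.42. Cd9 and Fabp5 of the same list read 66.7 to 81.9 against 21.0 to 36.8 and 61.8 to 70.9 against 5.25 to 57.8, on the PanCK+ side, without passing the test. With TMM factors in place of the upper quartile, 3 of this list were lower and 1 higher, and the calls of Itgam, Gpnmb and Mmp12 ended (adjusted p = 0.0888, 0.245 and 0.235, edgeR). Among 8 Kupffer cell markers 1, Cd5l, was called lower (-2.04), and its call also ended with TMM factors (adjusted p = 0.123, edgeR). Clec4f and Vsig4, the Kupffer cell lectin and complement receptor, read 4.20 to 13.1 against 5.25 to 26.3 and 2.63 to 4.94 against 5.25 to 26.3. When each ROI was left out in turn, Trem2 lost the call without ROI 013 (adjusted p = 0.173, edgeR), Cx3cr1, Itgam, Lgals3 and Cd5l in 2 of 4 fits each (highest adjusted p = 0.442, 0.682, 0.0896 and 0.715), and Gpnmb and Mmp12 in 3 each (0.679 and 0.692).

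A minority of genes for uptake, degradation and antigen presentation were called. Of 25 lysosomal genes 5 were called lower in PanCK+ segments and 0 higher (median -0.78). Psap, the precursor of the saposins, read 124, 109, 158 and 90.3 against 326, 289, 257 and 375 (log2 fold change -1.41, SE 0.32), and Ctsc, Lgmn and Hexa had -1.50, -1.36 and -1.81. Of 17 genes for Fc receptors and efferocytosis 5 were called lower, among them Axl (-1.74), a receptor for dying cells. Of 9 genes of MHC class II presentation 3 were called lower (median -1.14). H2-Ab1 read 27.2, 12.6, 65.7 and 27.3 in PanCK+ and 210, 68.3, 110 and 144 in IBA1+ segments (log2 fold change -2.08, SE 0.36), followed by H2-Aa at -1.77 and the invariant chain gene Cd74 at -1.52. Of 10 genes of MHC class I presentation 1 was called, H2-K1, which was higher in PanCK+ segments (1.21). Of 25 complement genes 5 were called lower, the C1q chains, the anaphylatoxin receptor C3ar1 (-2.73) and properdin, Cfp (-1.88). C3, the central complement component, read 433 to 530 in PanCK+ against 179 to 347 in IBA1+ segments, and did not pass (adjusted p = 0.1, edgeR). With TMM factors 3 lysosomal and 3 Fc receptor and efferocytosis genes were called lower, and Cd74, Lgmn, Hexa, Axl and Cfp lost their calls, as did Csf1r, Sox9 and Tm4sf4 of the marker lists. Psap lost its call without ROI 013 (adjusted p = 0.39, edgeR) and H2-Aa without ROI 007 (0.285). Cd74 and Hexa did so in 2 of the 4 fits without an ROI (highest adjusted p = 0.278 and 0.722), and Ctsc, Lgmn, Axl, H2-K1 and Cfp in 3 (0.0812, 0.253, 0.368, 0.317 and 0.423).

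**Figure D4:**
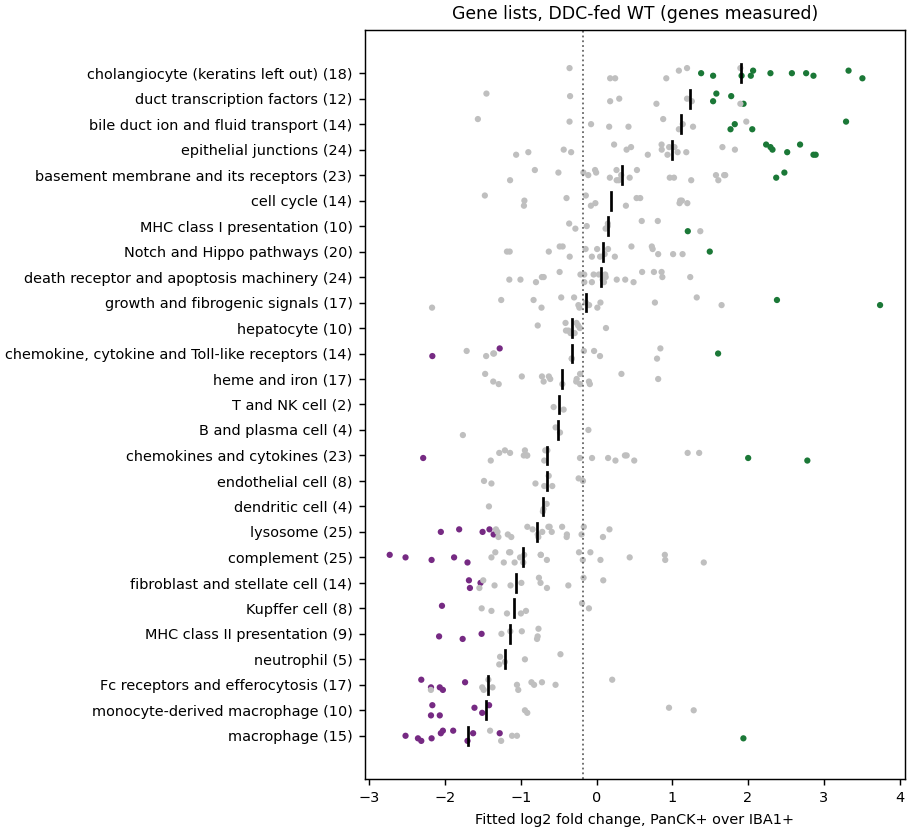
Fitted log2 fold change of PanCK+ over IBA1+ segments for every measured gene of each list (number of genes in parentheses), in green where called higher, purple where called lower and grey where not called, with a black bar at the list's median and a dotted line at the median of all genes. The cholangiocyte list has the highest median (1.91) and the macrophage list the lowest (-1.70), and lists near 1 count (neutrophil, endothelial, dendritic, B and T cells) hold no called gene.

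Some collagen and proteoglycan genes were higher in the IBA1+ segments. Of 14 fibroblast and stellate cell markers 3 were called lower in PanCK+ segments and 0 higher (median -1.06), and their summed Q3-normalized count was 924 to 1510 in IBA1+ and 309 to 578 in PanCK+ segments. Col1a1, a chain of type I collagen, read 126, 56.7, 116 and 103 in PanCK+ and 268, 284, 473 and 242 in IBA1+ segments (log2 fold change -1.67, SE 0.32, adjusted p = 5.56e-05, edgeR). Col3a1 read 185, 94.5, 171 and 116 against 341, 305, 504 and 438 (-1.53, SE 0.31), and the small proteoglycan Dcn had -1.68. For these genes the groups did not overlap. Col1a2 had -1.14 with an adjusted p of 0.0658 (edgeR), again without overlap, and Sparc -0.65 with 0.674. Fbln1, the matrix protein fibulin-1 and 1 of the 12 genes with the lowest log2 fold changes, read 7.41, 8.40, 2.63 and 2.10 against 31.5, 26.3, 47.3 and 42.0 (log2 fold change -2.78, SE 0.42). The part that fibroblast RNA within the IBA1+ area has in the results on that side was not tested. By contrast, of 23 basement membrane genes and receptors 2 were called, both higher in PanCK+ segments, Agrn (agrin, 2.37) and Itga3 (the laminin-binding integrin subunit, 2.48). Without ROI 013, Col3a1, Dcn and Agrn did not pass (adjusted p = 0.171, 0.0833 and 0.0833, edgeR).

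Several of the 12 genes with the lowest log2 fold changes rested on few counts. Abcd2, a peroxisomal transporter, had the lowest value (-2.97) from 22 counts in the IBA1+ segment of ROI 009, with 1 count in its other IBA1+ segments. Without ROI 009 it was -0.53 (adjusted p = 0.991, edgeR), and DESeq2 and limma did not call it with all ROIs (adjusted p = 0.209 and 0.122). Abcd2 was higher in PanCK+ by raw count in ROI 007. The IBA1+ segment of ROI 009 also held 66 counts of Hba-a1 and the highest summed hepatocyte markers, 4930 Q3-normalized counts. Mylip stood at 1 count in all PanCK+ segments and at 1, 2, 1 and 8 in IBA1+ segments, and Tcf4 at 1, 1, 4 and 8 in the latter. Neither was called in all fits that left out an ROI. Gpx3 (the secreted glutathione peroxidase), C3ar1, Fcer1g and Lyz2 stayed called whichever ROI was left out. Their mean raw counts were low too, at 4.25, 3.88, 4.75 and 5.38. In ROI 009 Lyz2 held 5 raw counts in either segment, so that scaling alone set its sign there. Htra3 and Wfdc17 lost the call in 1 and 2 of those 4 fits.

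Hepatocyte markers were read in the segments of both stains, and from which cells their RNA came was not tested. All 10 measured hepatocyte markers had a mean count of at least 5, and 0 were called. Their summed Q3-normalized count was 1710 to 2950 in PanCK+ and 1500 to 4930 in IBA1+ segments, and Alb read 2030, 1150, 1750 and 1420 against 1760, 3520, 966 and 2340. Hepatocyte RNA was thus present in all 8 segments, under either stain. Markers of neutrophils (5 measured), endothelial cells (8), dendritic cells (4), B and plasma cells (4) and T and NK cells (2) gave 0 calls, and none of these genes had a mean count of 5. The 17 heme and iron genes, the 24 of the death receptor and apoptosis machinery and the 14 cell cycle genes gave 0 calls as well (medians -0.45, 0.06 and 0.19). In the apoptosis list, 2 of the 24 genes had a mean count of at least 5. Among called genes in no list were 5 histone genes, H2ac18, H2ac10, H2bc11, H3c1 and H4c17, higher in PanCK+ segments by 1.38 to 2.07. Histone genes have near-identical copies that probes may not tell apart.

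Promoters of the called genes were searched for 6 short motifs in the windows from 250 bases before to 50 after each gene start (RefSeq, GRCm38.p6, both strands). Windows were found for 82 of the 112 higher and 58 of the 78 lower genes, 116 and 68 windows, and for 8428 of the 10547 genes in the table. The AP-1 motif TGANTCA was in 14.7% of windows of the higher genes, 8.82% of the lower genes and 5.73% of all windows. The PU.1 core GAGGAA was in 31.9%, 35.3% and 26.8%, the TEAD motif GGAATG in 13.8%, 16.2% and 12.4%, and the GRHL motif AACCNGTT in 5.17%, 2.94% and 1.89%. The IRF core pair was in 4.31%, 5.88% and 2.97% and the HNF1 motif in 0.862%, 0.0% and 0.343%. The shares are descriptions of letters and not sites. In the stretches below only the motif named for a gene is in capitals. Hits of the other motifs stay in lower case, such as the PU.1 core in the Mmp7 stretch (ttcctc, the other strand). The stretches of 250 bases before the start of 3 epithelial and 2 macrophage genes from the results above are shown, 5′ to 3′ on the strand of the gene, with the motif in capitals: the AP-1 motif for Mmp7 (chr9:7691840-7692089, plus strand) and Cldn4 (chr5:134946935-134947184, minus strand), the HNF1 motif for Pkhd1 (chr1:20618058-20618307, minus strand), and the PU.1 core for C1qb (chr4:136886201-136886450, minus strand) and Ctss (chr3:95526536-95526785, plus strand).
Mmp7: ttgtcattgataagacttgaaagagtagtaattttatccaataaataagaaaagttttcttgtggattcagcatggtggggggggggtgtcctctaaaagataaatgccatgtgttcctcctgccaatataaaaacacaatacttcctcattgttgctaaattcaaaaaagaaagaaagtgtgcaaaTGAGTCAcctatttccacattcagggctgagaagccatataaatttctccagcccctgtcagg
Cldn4: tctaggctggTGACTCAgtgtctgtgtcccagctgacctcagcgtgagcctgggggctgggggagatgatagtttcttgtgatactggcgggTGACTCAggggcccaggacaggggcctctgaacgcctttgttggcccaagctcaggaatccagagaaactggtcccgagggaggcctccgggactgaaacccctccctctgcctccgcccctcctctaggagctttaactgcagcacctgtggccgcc
Pkhd1: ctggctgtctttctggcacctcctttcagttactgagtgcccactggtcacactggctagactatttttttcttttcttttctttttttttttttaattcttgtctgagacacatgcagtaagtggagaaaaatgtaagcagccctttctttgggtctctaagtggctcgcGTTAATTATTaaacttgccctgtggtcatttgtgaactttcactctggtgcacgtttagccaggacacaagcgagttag
C1qb: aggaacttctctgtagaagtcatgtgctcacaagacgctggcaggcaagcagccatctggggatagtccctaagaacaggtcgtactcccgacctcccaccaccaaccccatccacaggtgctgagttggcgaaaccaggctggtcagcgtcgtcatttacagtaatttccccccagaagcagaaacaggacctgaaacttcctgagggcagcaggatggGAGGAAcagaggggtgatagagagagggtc
Ctss: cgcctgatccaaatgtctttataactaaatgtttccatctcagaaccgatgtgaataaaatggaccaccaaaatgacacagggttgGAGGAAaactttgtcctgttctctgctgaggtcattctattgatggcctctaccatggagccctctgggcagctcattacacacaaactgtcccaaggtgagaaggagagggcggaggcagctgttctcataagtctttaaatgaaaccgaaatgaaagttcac

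Whether the difference between segments depended on diet was asked of 30 segments in 15 ROIs, with a separate segment term for each group. Against the control-diet WT mice, 1 of 10547 genes differed (0.00948% of the genes tested), with 270 at an unadjusted p under 0.05. By other tools 27 genes (24 with a positive difference, toward PanCK+ in DDC-fed mice) differed with DESeq2 and 52 (41 positive) and 35 (28 positive) with limma at pseudocounts of 1 and 0.5. DESeq2 gave no adjusted p for 10019 of the 10547 genes. The gene called by edgeR was Spp1, with a negative difference. On the control diet the PanCK+ segments held 819 and 809 Q3-normalized counts of Spp1 and both IBA1+ segments 1 count, at least 51.7-fold higher in PanCK+, against the 6.81-fold difference in DDC-fed WT mice. The fitted difference of the log2 fold changes was -4.51 (SE 0.80, adjusted p = 0.00323, edgeR) and, since it rests on segments at 1 count, only its direction and the 7.59-fold gap between the bound and the DDC value can be read. The control group had 2 ROIs. Their IBA1+ segments had totals of 26380 and 35207 with 70.3% and 57.7% of genes at 1 count, beside the 20319 to 34302 and 45.6% to 69.9% of DDC-fed WT mice, and the part of depth in the result was not tested. Without ROI 003, without ROI 005 or without the ROI block, Spp1 did not pass (adjusted p = 0.322, 0.85 and 0.114, edgeR), at fitted differences of -4.51, -4.52 and -4.54. In control-diet Trail Δmye mice Spp1 was also near 1 count in IBA1+ segments (3.94 to 11.8 Q3-normalized counts) and at 441 to 653 in PanCK+ segments.

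Next after Spp1 by p were C3 (difference 2.02, adjusted p = 0.191), Gas6 (-3.88, 0.191) and Gc (1.91, 0.213), none of which passed (edgeR). Clec4f had a log2 fold change of -4.92 in control-diet and -1.01 in DDC-fed WT mice, a difference of 3.91 (adjusted p = 0.561, edgeR). List medians of the 4 groups are given side by side from the same fit, with no test of their differences. Over all genes tested, the median log2 fold change was 0.00 in control-diet and -0.19 in DDC-fed WT mice. For Kupffer cell markers it was -2.59 and -1.13, for hepatocyte markers -1.50 and -0.32, for monocyte-derived macrophage markers 0.00 and -1.48, and for fibroblast markers 0.10 and -1.09. In the control-diet WT segments Gpnmb, Cx3cr1, Mmp12 and Plac8 stood at 1 count throughout, and Trem2, Itgam and Chil3 at 1 to 2 counts. The 0.00 of the monocyte-derived macrophage list therefore cannot be read as equal levels, nor its gap to -1.48 as a shift with diet. In the DDC-fed WT segments 0 of 8 Kupffer cell markers had a mean count of at least 5. Their -1.13, and the -1.01 of Clec4f, lie within the -1.32 to -0.74 that scaling alone gives at 1 count. The size of their gap to the control diet therefore cannot be read either. The cholangiocyte medians were 1.56 and 1.96 and those of MHC class II presentation -1.13 and -1.19.

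Against DDC-fed Trail Δmye mice, 0 of 10547 genes differed by edgeR (0.0% of the genes tested), with 341 at an unadjusted p under 0.05, 5 by DESeq2 and 0 by limma. DESeq2 again gave no adjusted p for 10019 genes. The totals of the compared segments were 158219 to 836971 in those mice, several times those of DDC-fed WT mice. Spp1 differed by -0.01 (SE 0.28, 95% interval -0.57 to 0.54), with 344 to 1320 Q3-normalized counts in PanCK+ and 50.1 to 187 in IBA1+ segments. The 344, the 50.1 and the total of 836971 all belong to ROI 035. Its negative probe counts were 43.1 (PanCK+) and 27.8 (IBA1+), beside 2.2 to 4.78 in the other compared segments of those mice. The lowest p belonged to Abcd2 (-2.63, adjusted p = 0.208), Myl6 (1.35, 0.331) and H2ac18 (1.95, 0.331), none of which passed (edgeR). The cholangiocyte median was 1.98 in Trail Δmye mice beside 1.96, the macrophage median -1.95 beside -1.72, and the fibroblast median -1.22 beside -1.09.

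**Figure D5:**
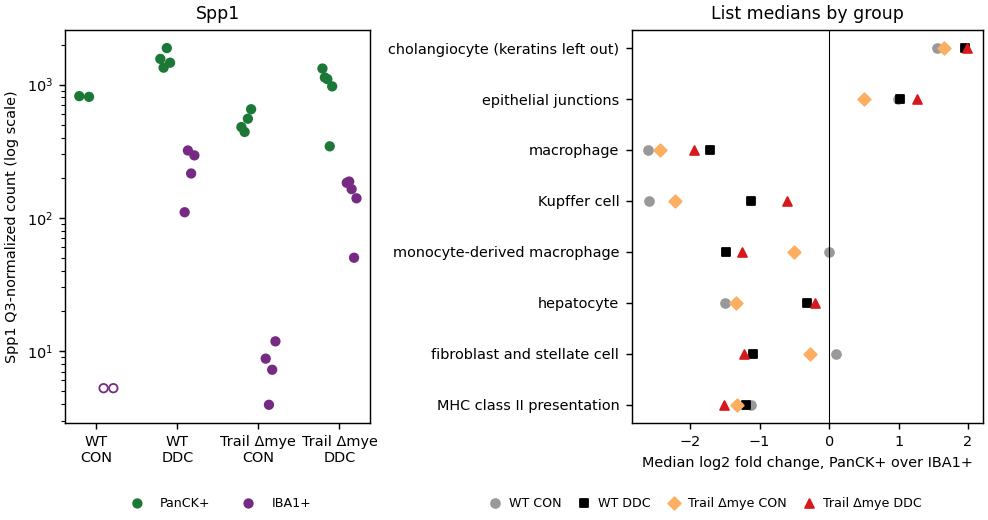
Left, Q3-normalized count of Spp1 (log axis) in each PanCK+ (green) and IBA1+ (purple) segment by group, with open points at 1 count. Right, median log2 fold change of PanCK+ over IBA1+ segments over the measured genes of 8 lists in each group. Spp1 is at 1 count in both IBA1+ segments of control-diet WT mice and at 110 to 320 in those of DDC-fed WT mice.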

How the data were processed

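GeoMx Whole Transcriptome Atlas segments were taken by the authors from formalin-fixed liver sections, in ROIs drawn around the ductular reaction. The expected counts are the authors' deposited values per target and segment, made after 18 cycles of amplification and sequencing, which kept targets above a limit of quantification in enough regions. The submitters' processing notes name bcl2fastq and mm10. How reads were matched to probes was not stated. The signal values are the authors' deposited Q3-normalized counts, the same counts times 1 factor per segment. Neither table has a value below 1 count in the raw scale, and whether 1 stands for a raised 0 is not stated. The negative probe was left out and 3 genes with values that are not whole were rounded.

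Both segments of an ROI carry its number and come from 1 piece of tissue, so ROI was a block. The segments' deviations from their class means correlated across 432 genes at 0.0564, -0.105, -0.104 and -0.0202 in the 4 ROIs. Fits used edgeR 4.0.16 in R 4.3.3 (quasi-likelihood, upper-quartile factors at the 75th percentile, no filter, Benjamini-Hochberg over all genes, adjusted p under 0.05, two-sided). An SE is the log2 fold change over the square root of F. A fold against a class with all segments at 1 count is a lower bound, computed with 3 counts per segment, and covers counting error only. Alternatives used DESeq2 1.42.0, limma 3.58.1 on log2(Q3-normalized count + 1) and + 0.5, TMM factors, library totals, filterByExpr, counts of 1 set to 0, thinning, all 15 ROIs, and each ROI left out. A minimum mean count of 5, with and without thinning, was chosen after seeing the data. The scripts were tested on simulated data. The comparison, the gene lists, the motifs and the genes printed were chosen with earlier results of these data known. Named genes are the 12 highest and 12 lowest log2 fold changes among called genes whose Q3-normalized ratios had 1 sign in all 4 ROIs, the list members, the stain genes, up to 5 leading genes of each sign for the differences between groups, and 11 genes the study discusses. Abcd2, Mylip, Tcf4 and Wfdc17 entered through ROIs at 1 count in both segments, where scaling alone sets the sign. Of the table's gene names, 10512 matched RefSeq. Some called genes of the lists are counted but not reported here by name.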

Additional observations from a re-analysis of the deposited data

Results flagged for a closer look

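In 48 groups of 4 values (totals, summed markers of each cell type, and within-ROI ratios of the 24 leading genes), 4 held a value far from the other 3, and chance gives about 1 in 20. The monocyte-derived macrophage markers summed to 168 Q3-normalized counts in the IBA1+ segment of ROI 011, below the 280 to 299 of the others. The dendritic cell markers summed to 23.6 in the PanCK+ segment of ROI 011, above 10.5 to 12.4 in the others, all near 1 count per gene. The endothelial markers summed to 52.5 in the IBA1+ segment of ROI 013, where 1 count reads 3.50. They summed to 63.0 in each of the others, where 1 count reads 5.25. The lower sum in ROI 013 is therefore not a lower raw count. The within-ROI log2 ratio of Scara3 was 4.82 in ROI 013 and 4.10 to 4.17 in the others, with the IBA1+ segment at 1 count in all 4 ROIs, so that the gap on the IBA1+ side is that of the scaling factors.

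The segment difference of Spp1 differed between diets in WT mice (-4.51, adjusted p = 0.00323, edgeR), tested as an interaction. It was negative in all 17 alternatives and called in 14 of them, with adjusted p from 2.52e-07 to 0.85.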

How the results depend on the processing

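For PanCK+ over IBA1+ segments in DDC-fed WT mice, 190 genes were called and the count moved by over 1.5 times with DESeq2 (95, of which 93 were among the 190, with 9201 adjusted p not given), with counts of 1 set to 0 (111), with thinning (0) and with thinning above a mean count of 5 (97). Leaving out 1 ROI gave 79 to 143 genes, the lowest without ROI 013 and 114 without ROI 007. TMM factors moved the median of all genes from -0.18 to -0.01 and gave 164 genes, 76.8% of them higher in PanCK+ segments in place of 58.9%. Without the replicate block 188 genes were called, 179 of them shared, with all 15 ROIs 188 (173 shared), and above a mean count of 5 194 of 1130 (152 shared). Of 34 genes examined one by one for this comparison, 0 reversed. The call was lost for 34 with thinning, 6 with counts of 1 set to 0, 3 with TMM factors, 1 of the 30 given an adjusted p with DESeq2 and 3, 2, 2 and 8 without ROIs 007, 009, 011 and 013. For the difference between diets in WT mice, 1 gene was called, 0 without the replicate block, 4 with TMM factors and 2 with library totals. DESeq2 gave 27, with 10019 adjusted p not given, filterByExpr 6 of 2030 genes tested, and counts of 1 set to 0 gave 6. Thinning gave 2, and 6 of 418 genes above a mean count of 5. Limma gave 52 and 35 at pseudocounts of 1 and 0.5. Leaving out 1 ROI gave 0 to 6, with 0 without either control ROI (003 or 005) and 6 without ROI 009. For the difference from DDC-fed Trail Δmye mice, 0 genes were called, also without the replicate block. TMM factors gave 5 and DESeq2 5, again with 10019 adjusted p not given. Leaving out an ROI gave 0 to 1, with 1 without ROI 011 and 1 without ROI 034. The causes were not tested. Depth limits all genes near 1 count, above all in IBA1+ segments.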
